A study of Homo sapiens with 23 samples.

Results

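The genes described here are the Wnt ligands, their Frizzled, LRP and LGR receptors, and 4 feedback or destruction complex genes. There are 38 of them among 19974 protein-coding genes. Chromatin loops were assigned to a gene when either of a loop's 2 bins of 5 kb overlapped the gene body (hg38) widened by 10 kb on each side. This gave 40 of 9591 listed loops in the T30 library and 34 of 7075 in the T0 library. Both libraries came from T47D, an established line of human breast cancer cells with an active progesterone receptor. They were made by HiChIP, in which DNA ends lying close together are joined and the joined fragments are pulled down with an antibody; the one used here binds the progesterone receptor. The T30 library is titled PR5020, taken here as the receptor and R5020, a synthetic progestin named in the treatment protocol; neither its dose nor the unit of its time is labelled. T0 carries no agent in its label. The labels' protocol for the series has cells in serum-free medium before exposure. Each condition is 1 library, so no difference below has a replicate check. Intervals cover counting error alone, and 2 libraries cannot stand for 2 conditions.

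Wnt proteins are secreted, lipid-modified signals that bind a Frizzled receptor, together with LRP5 or LRP6 in the beta-catenin branch of the pathway. Without a ligand, a destruction complex built on AXIN1 or AXIN2 marks beta-catenin for degradation. RNF43 and ZNRF3 are ubiquitin ligases that remove Frizzled from the cell surface, and the LGR receptors bind R-spondins, which block these ligases. In the mouse mammary gland, Wnt4 acts downstream of progesterone in side-branching of the ducts.

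Both lists held loops under a q-value of 0.05, but they differed in other limits. By the authors' model, listed p-values reached up to 2.84e-05 in T30 and 0.000233 in T0, and the fewest contacts (read pairs joining the 2 bins) were 8 and 7. T30 held no loop under 20 kb, whereas T0 held 574. Listed loops summed to 135538 contacts in T30 and 127457 in T0; the sequencing depth is unknown. A gene without a listed loop may therefore still have contacts below these limits.

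Loops were listed at 16 of the 38 genes in T30 and at 17 in T0. As shares these were 42.1% (exact 95% binomial interval 26.3 to 59.2) and 44.7% (28.6 to 61.7), where 32.2% of all protein-coding genes had a loop in T30 and 27.3% in T0. These intervals treat genes as independent, although neighbouring genes can share a region. In both libraries 12 genes had a loop, against 17.9% of all genes, 4 had one in T30 alone (background 14.2%) and 5 in T0 alone (9.37%). The remaining 17 had none. More loops were listed in T30 at 10 genes (background 20.8%) and fewer at 8 (15.4%), and 3 had equal numbers. The median difference per gene was 0, as it was over all genes. Calls by a fixed rule, at least 2-fold and at least 3 loops apart, went to WNT9A and FZD4 as higher in T30 (background 4.59%) and to FZD8 as lower (2.53%).

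**Figure D1:**
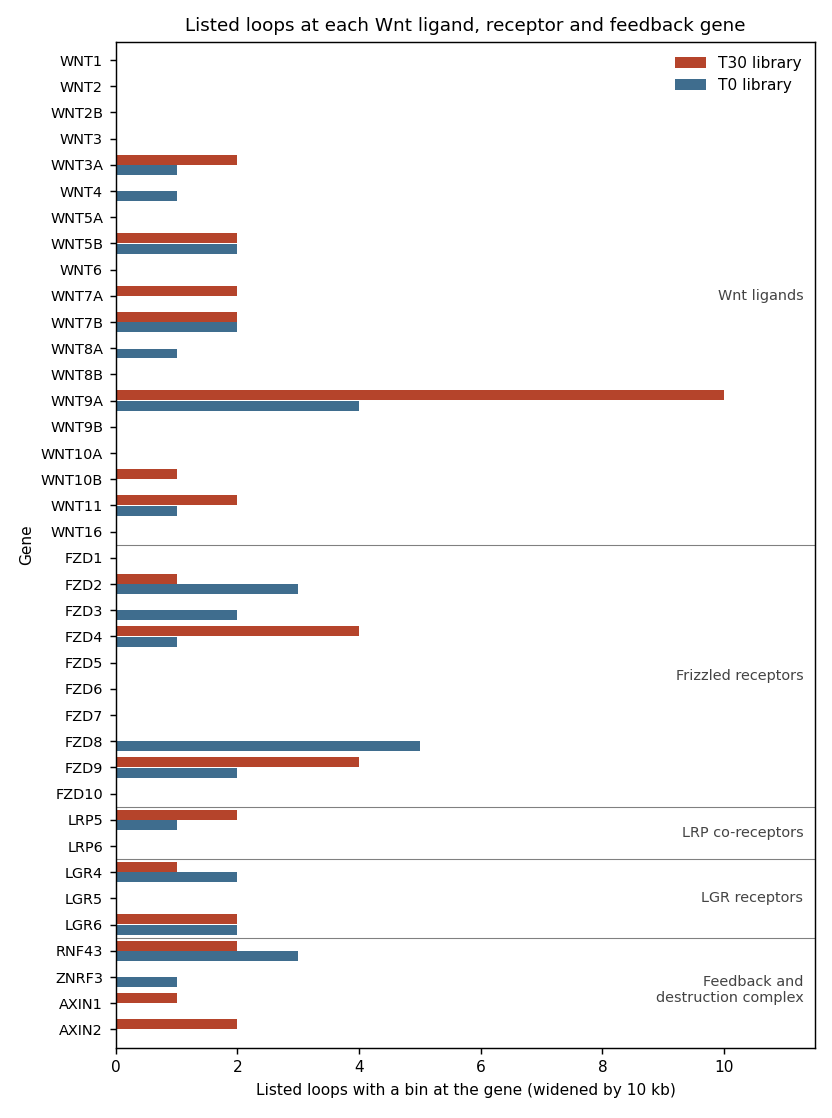
Number of listed loops (x axis) with a bin at each of the 38 genes (y axis), widened by 10 kb, in T30 (red, upper bar) and T0 (blue, lower bar). WNT9A stands out with 10 loops in T30 and 4 in T0, and FZD8 has 5 in T0 and none in T30.

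Start sites were given for 26 of the 38 genes, from a RefSeq promoter table of GRCh38.p14. The bin that holds the start site was at a listed loop for 6 of them in T30, where the share over all genes with a start site was 9.00%. In T0 it was at a loop for 5 of them (background 8.89%), and in both libraries for 4 (background 3.02%). Those 4 genes were WNT9A, LGR6, LRP5 and RNF43. The start bins of WNT3A and FZD4 were at a loop in T30 and not in T0, and that of FZD8 in T0 and not in T30. For the 4 genes looped in both libraries, and for FZD8 with the longest loops of the set, the 250 bases before the start site are given here in the direction of transcription (RefSeq, GRCh38.p14). WNT9A lies at chr1:227947933-227948182 on the minus strand, LGR6 at chr1:202193549-202193798 on the plus strand and LRP5 at chr11:68312341-68312590 on the plus strand. RNF43 lies at chr17:58417535-58417784 and FZD8 at chr10:35642297-35642546, both on the minus strand. Capitals mark AGAACA (or TGTTCT, its reverse complement), which is the hexamer bound by a steroid receptor monomer, or the spaced palindromic core ACANNNTGT.
WNT9A: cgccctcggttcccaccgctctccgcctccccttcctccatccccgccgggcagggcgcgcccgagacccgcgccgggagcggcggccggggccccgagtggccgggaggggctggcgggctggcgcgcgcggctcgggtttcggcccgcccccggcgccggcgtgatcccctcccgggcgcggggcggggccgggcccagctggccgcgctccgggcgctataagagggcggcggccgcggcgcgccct
LGR6: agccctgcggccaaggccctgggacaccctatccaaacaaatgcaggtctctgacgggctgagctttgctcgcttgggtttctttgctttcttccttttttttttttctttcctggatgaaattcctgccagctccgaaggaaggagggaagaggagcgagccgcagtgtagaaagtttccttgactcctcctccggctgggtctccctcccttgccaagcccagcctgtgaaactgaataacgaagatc
LRP5: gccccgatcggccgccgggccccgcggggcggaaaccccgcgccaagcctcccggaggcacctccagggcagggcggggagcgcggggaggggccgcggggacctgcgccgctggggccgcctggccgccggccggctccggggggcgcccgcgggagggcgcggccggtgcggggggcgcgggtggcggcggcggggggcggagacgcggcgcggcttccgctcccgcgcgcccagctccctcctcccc
RNF43: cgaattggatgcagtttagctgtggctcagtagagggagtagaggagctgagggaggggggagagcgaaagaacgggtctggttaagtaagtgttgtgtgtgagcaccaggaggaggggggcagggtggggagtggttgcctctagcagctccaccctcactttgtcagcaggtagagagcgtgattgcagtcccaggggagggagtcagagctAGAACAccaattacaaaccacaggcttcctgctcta
FZD8: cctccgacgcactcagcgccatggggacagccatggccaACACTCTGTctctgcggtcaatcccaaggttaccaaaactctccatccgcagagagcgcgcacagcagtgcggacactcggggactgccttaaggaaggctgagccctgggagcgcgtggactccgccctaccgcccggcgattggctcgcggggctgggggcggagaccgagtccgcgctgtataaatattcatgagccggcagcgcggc

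The hexamer occurs once in the RNF43 window, at position -36 from the start site, and the spaced core once in the FZD8 window. No window given here held both motifs. Neither motif was found in the windows of WNT9A, LGR6 and LRP5. Over the 26 genes with a window, 2 held the hexamer and 3 the core, where 9.41% and 3.24% of 15813 promoters of the same length did. These windows were rich in G and C, at a median of 73.2% over the 26 genes and 62.4% over all promoters, with 84.4% for WNT9A and 53.2% for LGR6. A match is a string of letters and no measured binding site, and a missing match says nothing about the receptor.

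Among the ligands, WNT9A, which in mice takes part in joint formation, had the most loops. It lies on the minus strand of chromosome 1 (227918656 to 227947932). In T30 its 10 loops had 31, 21, 17, 16, 13, 12, 10, 10, 10 and 10 contacts. Its 4 loops in T0 had 27, 23, 14 and 11. The sum was 150 contacts in T30 (95% Poisson interval 127 to 176) and 75 in T0 (59.0 to 94.0). Each sum runs over listed loops alone, so the intervals do not cover which loops a list left out. At the 4 loops listed in both libraries, contacts were 31, 21, 13 and 10 in T30 and 27, 23, 14 and 11 in T0. The rest of the T30 sum came from loops that were not matched to a T0 loop. Of these, the loops from the bins at 227935001 and 227955001, with 12 and 10 contacts, lay within 10 kb of a T0 loop at both ends. The start-site bin, 227945001 to 227950000, carried 7 of the 10 loops in T30 and all 4 in T0. Within 1 Mb of WNT9A the lists held 13 other loops in T30 and 17 in T0, fewer in T30, where the gene itself had more.

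The partners of WNT9A lay towards lower coordinates in both libraries, that is, beyond the end of the gene. Partner bins at SNAP47, a gene of the SNARE family, were at 5 of the loops in T30 and 2 in T0. The strongest loop, of 31 contacts in T30 and 27 in T0, joined the start bin to the bin at 227790001, which overlaps no protein-coding gene. All 4 loops of T0 had a counterpart in T30 whose far bin lay at most 1 bin away. The T30 list added short loops of 45 and 55 kb from the same start bin, with 16 and 17 contacts. A further loop of 210 kb reached SNAP47 and JMJD4 with 10 contacts, and 3 loops met WNT9A at other bins, at 227920001, 227935001 and 227955001. Under a q-value limit of 0.01 the difference at WNT9A was 3 loops in place of 6 and was no longer called.

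**Figure D2:**
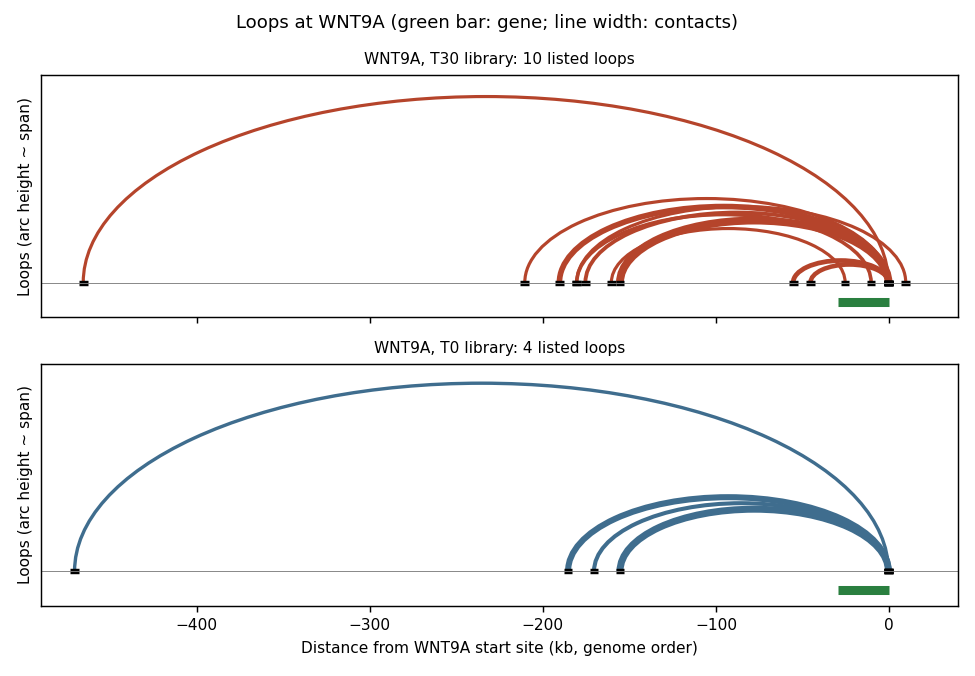
Loops at WNT9A as arcs over distance from its start site (x axis, kb, in genome order; arc height follows span and has no scale), T30 above and T0 below. Black marks are the 5 kb bins, the green bar is the gene and line width follows contacts; each of the 4 arcs of T0 has a counterpart in T30 at most 1 bin away, and T30 lists 10.

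WNT3A, a ligand of the beta-catenin branch next to WNT9A on chromosome 1, had 2 loops in T30 and 1 in T0. The T30 loops, of 15 and 11 contacts, both began at its start-site bin, and 1 of them ended within the widened gene. The T0 loop, of 16 contacts, began in the flank at 227995001 and ended at ARF1, a small GTPase gene. With genes not widened, WNT3A had a loop in T30 and not in T0.

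WNT7B, a ligand of epithelia, had 2 loops in each library, with 13 and 9 contacts in T30 and 8 and 8 in T0. All met in 1 bin, 45975001 on chromosome 22, at the upper end of the gene. The loop of 330 kb to 45645001 was listed in both libraries with the same bins, at 9 contacts in T30 and 8 in T0. WNT5B, mostly known for signals that do not use beta-catenin, had loops of 9 and 11 contacts in T30, the stronger from its flank, and of 18 and 11 in T0. Its partner bin held ADIPOR2, an adiponectin receptor gene, in T30 and CACNA2D4, a calcium channel subunit gene, in the adjoining bin in T0. WNT11, a ligand of cell movement in vertebrate embryos, had 2 loops of 11 contacts each in T30 and 1 of 16 in T0. The bin at 76315001 on chromosome 11 was a partner of WNT11 in both libraries.

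Loops were listed in a single library at 4 more ligands. WNT7A, a ligand that in mice patterns the limb and the female reproductive tract, had 2 loops in T30, of 12 and 9 contacts and 230 and 215 kb, and none in T0. The region within 1 Mb of WNT7A held 39 other loops in T30 and 11 in T0, so the list was longer around the gene as well. WNT10B, expressed in the early mammary bud of mice, had 1 loop in T30, of 17 contacts, in its flank; its partner bin held DDN. WNT4 had 1 loop in T0, of 10 contacts and 295 kb, and none in T30. WNT8A, a ligand of the early embryo, had 1 loop in T0, of 27 contacts, whose near bin lay in the flank and whose far bin held FAM13B. For WNT4 and WNT8A no T30 loop was listed, although their regions within 1 Mb held 7 and 6 other loops in T30, against 1 and 5 in T0.

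The other 10 ligands had no listed loop in either library: WNT1, WNT2, WNT2B, WNT3, WNT5A, WNT6, WNT8B, WNT9B, WNT10A and WNT16. Their surroundings differed widely. Within 1 Mb of WNT1 the lists held 41 loops in T30 and 31 in T0, and within 1 Mb of WNT8B 29 and 26. Within 1 Mb of WNT5A no loop was listed in either.

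Among the Frizzled receptors, 3 of 10 had a loop in T30 and 5 in T0. FZD8 had no loop in T30 and 5 in T0, with 12, 11, 10, 10 and 8 contacts. The FZD8 loops were the longest of the set, from 1085 to 1245 kb, and joined the gene on chromosome 10 (35638247 to 35642296) to bins from 36720001 to 36880001 that overlap no protein-coding gene. In the whole lists, loops of at least 1000 kb numbered 32 in T30 and 155 in T0, and within 1 Mb of FZD8 there were 1 other loop in T30 and 2 in T0. The part of this list-wide difference in the FZD8 result was not tested. FZD8 remained called lower in T30 under each of the 7 other settings tried for the gene counts. A shorter T30 list, a least span and genes not widened could not have changed this call. T30 had 0 loops at FZD8, and all 5 loops of T0 met the gene body and spanned over 1000 kb. None of the settings put a limit on long loops.

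FZD4, the receptor for norrin in retinal vessels as well as for Wnt ligands, had 4 loops in T30 and 1 in T0. Contacts were 17, 13, 11 and 11 in T30 and 11 in T0. Within 1 Mb of FZD4 the lists held 6 other loops in T30 and 3 in T0, so more were listed around the gene in T30 as well. The bin at 86940001 on chromosome 11 held 3 of the T30 loops and the T0 loop. It lies in the flank of FZD4 and overlaps PRSS23, a serine protease gene. With genes not widened, FZD4 kept 1 loop in T30, from its start-site bin to 87005001, and none in T0, so the call rests on the flank. The difference also lost its call with a T30 list as long as the T0 list and at a q-value limit of 0.01.

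**Figure D3:**
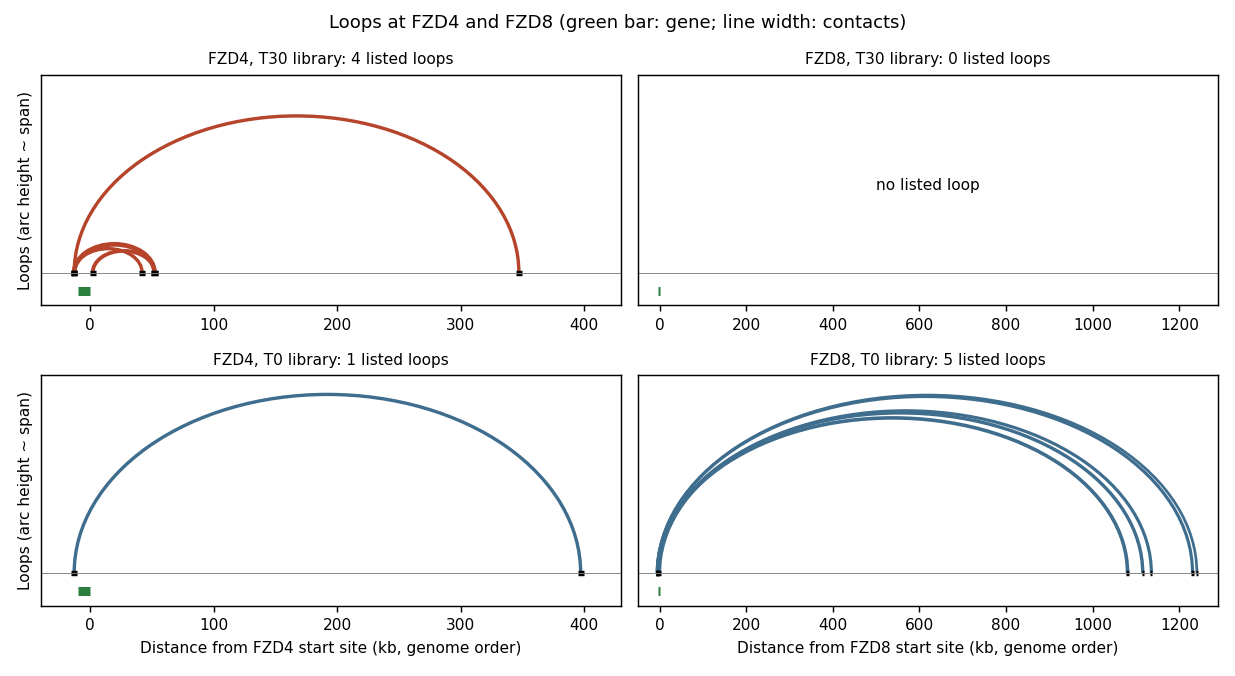
Loops at FZD4 (left) and FZD8 (right) as arcs over distance from each start site (x axis, kb, in genome order; arc height follows span and has no scale), T30 above and T0 below, with line width following contacts. FZD8 shows 5 loops of over 1000 kb in T0 and none in T30; at FZD4 most loops begin in the flank beside the gene.

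FZD9 had 4 loops in T30, of 13, 12, 11 and 10 contacts, and 2 in T0, of 18 and 17. In T30, 3 of them reached the gene itself at the bin 73435001 on chromosome 7, whereas both loops of T0 met its flanks. Partner bins held NSUN5, TRIM50 and FKBP6 in T30 and NSUN5 in T0. The region within 1 Mb held 39 other loops in T30 and 13 in T0. FZD2, a receptor for WNT5A among others, had 1 loop of 20 contacts in T30 and 3 in T0, of 48, 18 and 17. The T0 loop of 48 contacts spans 10 kb, shorter than any loop in the T30 list. FZD3, which guides axons in mice, had 2 loops in T0, of 15 and 12 contacts, and none in T30; their near bin overlaps FBXO16 as well. FZD1, FZD5, FZD6, FZD7 and FZD10 had no listed loop.

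LRP5 and LGR6 had loops inside the gene that began at the start-site bin in both libraries. The LRP5 start site in the table lies inside the annotated gene (68298412 to 68449275, chromosome 11). At LRP5 that loop had 16 contacts over 70 kb in T30 and 18 over 50 kb in T0, and T30 listed a second loop, of 17 contacts, in the flank. At LGR6, which spans 202193799 to 202319761 on chromosome 1, each library listed 2 loops with both bins in the gene. They had 14 and 12 contacts in T30 and 17 and 16 in T0. The LGR6 loop from the start bin reached 202310001 in T30 and 202315001 in T0, near the far end of the gene. LGR4 had 1 loop of 11 contacts in T30, and in T0 2 loops of 22 and 11 contacts. The stronger loop in T0 ended at 27180001 and the T30 loop in the adjoining bin, both from the bin just upstream of the LGR4 start site. Within 1 Mb of LGR4 the lists held 1 other loop in T30 and 11 in T0. LRP6 and LGR5 had no listed loop, and within 1 Mb of LRP6 there was none in either library.

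RNF43 had 2 loops in T30 and 3 in T0, with 12 and 15 contacts in T30 and 22, 17 and 16 in T0. From its start-site bin on chromosome 17 a loop reached TSPOAP1 in both libraries, with 12 contacts over 95 kb in T30 and 16 over 100 kb in T0. The strongest RNF43 loop of T0 joined the bins that hold the 2 ends of the gene, and T30 did not list it. ZNRF3 had 1 loop in T0, of 28 contacts and 10 kb, and none in T30, whose list starts at 20 kb. AXIN2, itself a target of beta-catenin signalling, had 2 loops in T30, of 12 and 9 contacts, and none in T0. They left the gene in opposite directions, over 225 kb to CEP112 and over 265 kb to a bin without a protein-coding gene. The AXIN2 region held 2 other loops in T30 and 10 in T0 within 1 Mb. AXIN1 had 1 loop in T30, of 9 contacts, from its flank to NPRL3, and none in T0.

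Loops at the 38 genes had a median of 12 contacts in T30 and 16 in T0, where all listed loops had 13 and 14. Their median span was 125 kb in T30 and 142.5 kb in T0, against 80 kb and 190 kb over all loops. Both bins lay at the same widened gene for 5 loops in T30 and 6 in T0. Of the 35 distal partner bins in T30, counted per loop, 19 overlapped a protein-coding gene, and of 28 in T0, 10 did. No share over all listed loops was computed for these counts or for loops with both bins at a gene. They are therefore not set against the lists as a whole. No distal partner bin overlapped another of the Wnt genes examined.

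**Figure D4:**
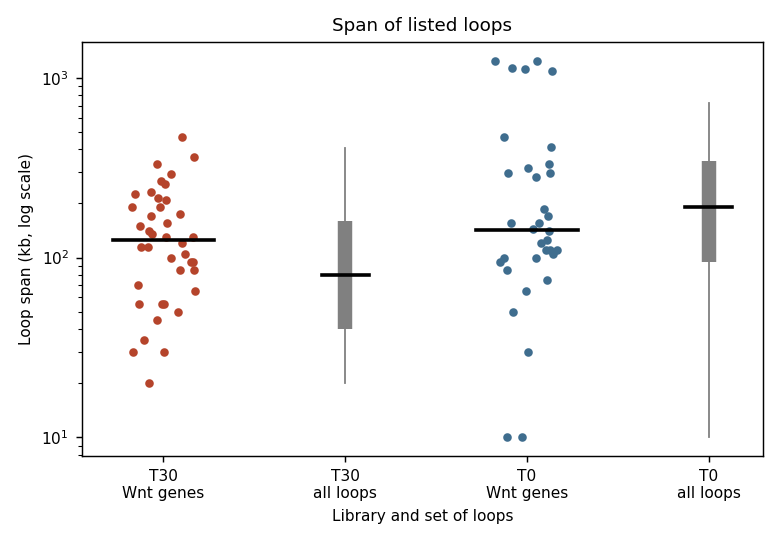
Span of each loop (y axis, kb, log scale) at the 38 genes (points, black line at the median) beside all listed loops of the same library (grey bar for the middle quartiles, thin line from the 5th to the 95th percentile, black line at the median). The median at the genes is 125 kb in T30 and 142.5 kb in T0, between the list medians of 80 kb and 190 kb.

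Contacts could be compared directly at loops listed in both libraries, matched when the authors' cluster ranges at both ends overlapped. There were 1389 such pairs in all, with a median T30 to T0 ratio of 0.667, and 8 at these genes: 4 at WNT9A and 1 each at WNT7B, LGR6, RNF43 and FZD9. Each pair was tested against that ratio (exact binomial test, two-sided, adjusted over all pairs by Benjamini and Hochberg), which compares the libraries; none of the 8 was called. Over all pairs 22 were called higher (background 1.58%) and 1 lower (0.0720%). At an unadjusted p under 0.05 there were 75 higher and 26 lower over all pairs and 1 at these genes. That one was the strongest WNT9A loop, with 31 contacts in T30 and 27 in T0. Its scaled log2 ratio was 0.78 (95% interval -0.0077 to 1.58; exact binomial p = 0.0438, adjusted p = 0.632). The lowest was at FZD9, with 10 contacts in T30 and 18 in T0 and a scaled log2 ratio of -0.26 (-1.54 to 0.93; exact binomial adjusted p = 1). The FZD9 pair met only the flank of that gene, at a bin that overlaps BAZ1B. Relative to the median ratio 7 of the 8 lay above it. Without scaling, or with the ratio of summed contacts (1.06), 2 of the 8 lay above. The direction of the set thus rests on the scaling. It also covers matched loops alone, and 4 of the 8 share the WNT9A start bin. Within 10 kb at both ends, 18 of the 40 loops in T30 and 16 of the 34 in T0 had a listed loop in the other library. Those left unmatched were not tested. All 8 intervals of the matched pairs, 4 of them at WNT9A, include the median ratio. For the strongest WNT9A loop the interval and the unadjusted binomial p-value come from different exact methods and disagree at 0.05.

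**Figure D5:**
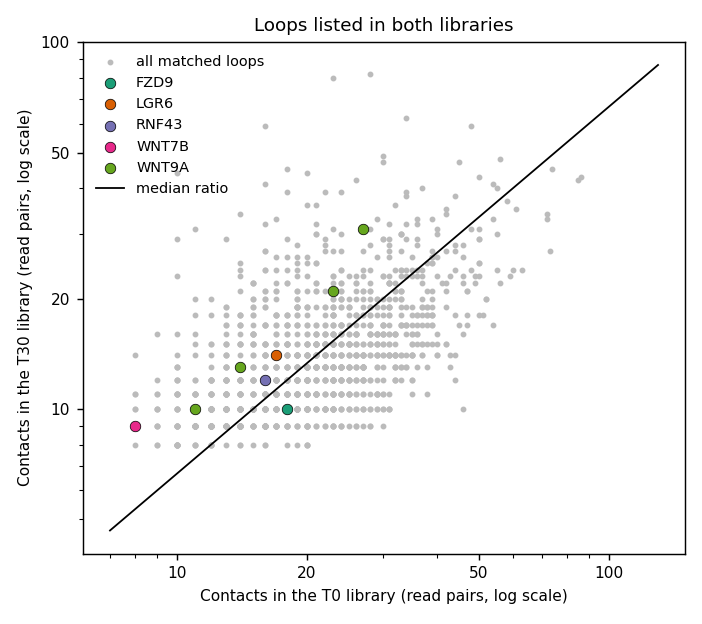
Contacts in T30 (y axis) and T0 (x axis), both on log scales, for the 1389 loops listed in both libraries (grey) and the 8 at Wnt ligand, receptor and feedback genes (coloured). The line is the median ratio of 0.667; 7 of the 8 points lie above it and the FZD9 point, at 10 contacts in T30 and 18 in T0, lies below.

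Of 59 other genes of the pathway, 30 had a listed loop in T30 and 20 in T0, 15 of them in both, against 32.2% and 27.3% of all genes. These are shares of 50.8% (exact 95% interval 37.5 to 64.1) and 33.9% (22.1 to 47.4). Secreted or surface inhibitors had a loop at 9 of 15 genes in T30 and 3 in T0, and alternative receptors and planar polarity genes at 6 of 9 and 2. Cytoplasmic components had one at 6 of 17 in T30 and 7 in T0, nuclear components at 7 of 11 and 6, and secretion and R-spondin genes at 2 of 7 in each. The same rule called 4 of the 59 genes higher in T30 and 2 lower, against 4.59% and 2.53% of all genes.

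DVL3, which relays the signal from Frizzled, had 23 loops in T30 and 8 in T0. Only 14 of these in T30 and 1 in T0 had a bin in the gene body, and the rest met its flanks. Within 1 Mb on chromosome 3 there were 196 other loops in T30 and 106 in T0. Many bins counted for DVL3 overlap AP2M1 or EIF2B5, some of them without overlapping DVL3. NKD2, which binds Dishevelled and damps the signal, had 5 loops in T30 and 0 in T0, with 39 and 6 others in its region. PTK7, a co-receptor of planar polarity, had 4 loops in T30 and 1 in T0, with 24 and 14 others in its region. DKK4, a secreted LRP inhibitor, had 3 and 0, in a region with 39 other loops in T30 and 0 in T0. Lower in T30 were WIF1, a secreted Wnt-binding inhibitor, with 2 loops in T30 and 5 in T0, and TLE3, a corepressor, with 1 and 5. Other loops within 1 Mb numbered 10 in T30 and 11 in T0 at WIF1, and 12 and 7 at TLE3. Not called were SOST, a secreted LRP inhibitor (3 in T30 and 5 in T0), CSNK1A1, a kinase of the destruction complex (5 and 7), and BTRC, a ubiquitin ligase subunit for beta-catenin (3 and 2). CELSR1, a planar polarity cadherin (3 and 1), and BCL9, a beta-catenin coactivator (1 and 3), were not called either. Some of these loops met a flank alone. Those with a bin in the gene body numbered 1 in T30 and 0 in T0 at SOST, 3 and 2 at CSNK1A1, and 1 and 1 at BCL9.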

How the data were processed

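Only the HiChIP libraries among the 23 samples were used, 1 labelled T30 and 1 labelled T0, with no replicates. The authors deposited 1 list per library of loops under a q-value of 0.05, in which near contacts had been merged. The submitters' processing notes name Bowtie and hg38 or GRCh38 as builds; for versions, settings and pooling nothing is given in the sources. The deposited contacts, headed cc, were taken here as raw counts of read pairs for each loop. Per the file headers, p-values and q-values were computed by the authors with a correction for bias. A deposited fraction per cluster of contacts entered no result.

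Genes were placed by RefSeq's table for GRCh38.p14, where all 38 genes and the 59 other pathway genes were found. A gene was at a loop when a bin overlapped it, widened by 10 kb. Partner bins are the bins at a loop's other end. Matched loops have cluster ranges that overlap by at least 1 bp at both ends, paired one to one by the smallest shift. Named are every gene of the set, other pathway genes with 3 or more loops, and genes at partner bins for the strongest and the shared loops; partners of further loops were named after their values were seen. The 38 genes, the lists and the rules were chosen with earlier results of these data known. Settings tried were other limits on q, contacts, span and gene width, lists of equal length and other scalings; an equal p-value limit was added later. The overlap of loops with genes and the binomial test of contacts were tested on simulated data, and the other steps were not. Tools were Python 3.11.15 with pandas 2.3.3, numpy 2.4.6, matplotlib 3.10.9 and scipy 1.17.1.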

Additional observations from a re-analysis of the deposited data

How the results depend on the processing

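Counts of Wnt genes with a loop stayed within 1.5 times of the values above under each of the 7 other settings for loops and gene width, from 13 to 19 in T30 and from 12 to 21 in T0, with 8 to 16 in both. The share over all genes moved with the setting as well, between 22.0% and 46.7% in T30, between 19.5% and 41.5% in T0, and between 11.2% and 31.5% for both libraries. With genes widened by 50 kb, 50.0% of the Wnt genes had a loop in T30, close to the 46.7% of all genes, and 55.3% in T0, against 41.5%. Distinct loops at these genes numbered 40 in T30 and 34 in T0; at q under 0.01 they were 23 in T30, and with genes widened by 50 kb 52 in T0. Distinct partner bins, 40 and 36, became 26 and 23 at q under 0.01, 68 and 56 with genes widened by 50 kb, and 23 in T0 at the T30 list's largest p-value, a setting chosen after seeing the data. Genes called higher in T30 numbered 0 at q under 0.01 (2.50% of all genes) and 1 with lists of equal length (2.91%). Genes called lower numbered 2 with lists of equal length (3.43%) and 4 with genes widened by 50 kb (5.11%). With genes not widened the 2 called higher were WNT9A and FZD9, and with lists of equal length FZD2 was called lower beside FZD8. Over all matched loops, calls were 6 higher and 127 lower with the ratio of summed contacts, 6 and 41 without scaling, 14 and 0 at q under 0.01, and 5 and 0 at identical bins, where 3 pairs remained at these genes. None of the matched pairs at these genes was called under any of these. No difference between the libraries at WNT9A, FZD4 or FZD8 reversed. At WNT9A and FZD4 the limits on contacts, on span and on an equal p-value removed no loop, so they could not have changed these differences. At FZD8, with 0 loops in T30, only a wider gene could have reversed it. The causes of these shifts were not tested. No paired analysis was possible because each condition is 1 library. With 8 or 7 contacts as the fewest listed, weaker contacts could not be seen.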
